A study of Mus musculus with 10 samples.

Results

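The genes described here write, read or remove DNA and histone methylation, belong to Polycomb repressive complexes, or remove histone acetylation. They are 39 mouse genes chosen by function and looked up on the array by gene symbol. Of these, 4 are DNA methyltransferases, 4 remove DNA methylation, and 6 Mbd and Uhrf genes are grouped as its readers and their relatives. Polycomb repressive complex 2 (PRC2) has 7 genes and Polycomb repressive complex 1 (PRC1) has 5. The rest are 4 histone H3 lysine-9 (H3K9) methyltransferases, 4 histone demethylases and 5 histone deacetylases. Of 19057 gene symbols with a probe, 36 were these genes, with 81 probes. A probe was tested when its detection p-value was under 0.05 on at least 2 of the 10 arrays, which held for 62 probes of 33 genes. Hdac1, Tet2 and Suv39h1 had no probe under their names and were not analysed here. Dnmt3a, Tet3 and Ehmt1 had probes that did not pass, as none of the Dnmt3a and Tet3 probes was detected on any array and each Ehmt1 probe was detected on 1 array.

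RNA came from the uterus of CD-1 mice, an outbred stock. Dams had been injected with BPA (bisphenol A), an estrogen-like building block of plastics, daily at 5 mg/kg, or with its solvent DMSO, from day 9 to day 21 of gestation. All female offspring, controls included, were ovariectomised at 6 weeks, and at 8 weeks they received 300 ng estradiol (E2) or DMSO 6 h before the uterus was taken. The 4 groups are named by exposure in utero and then by injection: CTL-CTL (2 arrays), CTL-E2 (2 arrays), BPA-CTL (3 arrays) and BPA-E2 (3 arrays). RNA was pooled by litter before it was hybridised, and each litter gave 1 DMSO-injected and 1 E2-injected array. The study asked whether BPA in utero changes the later response of the uterus to E2.

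DNA methyltransferases place methyl groups on cytosine: Dnmt1 copies the marks after replication, with Uhrf1 guiding it to half-methylated sites, and Dnmt3a and Dnmt3b place new ones. TET enzymes oxidise methylcytosine, and Tdg excises some of the oxidised forms. PRC2 methylates lysine 27 of histone H3 and PRC1 ubiquitinates histone H2A, both at repressed genes, while histone deacetylases remove the acetyl groups found at active ones. Estrogen drives growth of the uterus, and several of these genes, Uhrf1, Dnmt1 and Ezh2 among them, are known to follow cell division.

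Median raw signal was 122.3 to 131.9 per array, the background was estimated at 110.8 to 119.5, and 19723 to 21109 of 45281 probes were detected. Arrays of a group correlated at r = 0.991 to 0.993 across probes. Precision is limited by the number of arrays, and the p-values rest on the spread between these litter pools. All 4 vehicle-exposed arrays lay on slide 1 and all 6 BPA-exposed arrays on slide 2, so for every comparison of BPA with vehicle in utero the exposure and the slide cannot be told apart; the E2 responses lie within a slide. Of 7 uterine identity markers, 6 were detected and Emx2 was not. The epithelial marker Epcam was detected on no array. Of 4 ovarian genes with a probe, Amh and Star were detected on no array, and Inha, the one tested, was lower after BPA under E2 (-0.76 ± 0.21, adjusted p = 0.0278), with means of 5.14 in BPA-E2 and 5.91 in CTL-E2. Lactotransferrin (Ltf), an estrogen-induced secretory protein of uterine epithelium picked after its values were seen, stood at a mean of 15.40 in CTL-CTL, 15.35 in CTL-E2, 13.80 in BPA-CTL and 10.65 in BPA-E2. In the CTL-CTL arrays, from ovariectomised mice without E2, it ranked 5 of 45281 probes. Of 2 further estrogen-induced genes picked in the same way, the progesterone receptor Pgr rose with E2 after vehicle (1.17 ± 0.12, adjusted p = 0.000446) and had 0.18 ± 0.10 after BPA (adjusted p = 0.228). Greb1, an estrogen receptor cofactor, rose after vehicle (1.02 ± 0.09, adjusted p = 0.000203) and fell after BPA (-0.69 ± 0.07, adjusted p = 0.000267). The group labels were used as given.

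Levels are normalized log2 intensities, changes are log2 differences ± standard error, and adjusted p-values are those of limma with Benjamini-Hochberg adjustment over 23942 probes; a probe was called at an adjusted p under 0.05. In the E2 response after vehicle (CTL-E2 minus CTL-CTL) 9 of the 62 probes were called, 4 higher and 5 lower, which is 14.5% against 18.1% of all probes tested (8.96% higher and 9.11% lower). In the E2 response after BPA (BPA-E2 minus BPA-CTL) 16 were called, 13 higher and 3 lower, which is 25.8% against 24.9%. By direction, 13% of all probes were called higher there and 11.9% lower. For the difference between the responses 6 were called, 5 higher and 1 lower, which is 9.68% against 12.1% of all probes (6.01% higher and 6.14% lower). For the BPA effect without E2 (BPA-CTL minus CTL-CTL) 10 were called, 5 higher and 5 lower, which is 16.1% against 26.9% (14.2% higher and 12.7% lower). For the BPA effect under E2 (BPA-E2 minus CTL-E2) 13 were called, 10 higher and 3 lower, which is 21% against 26.5% (13.7% higher and 12.8% lower). The 2 groups compared did not overlap for 38 of the 62 probes in the E2 response after vehicle, against 56.6% of all probes, and for 27 in that after BPA, against 42.9%. They did not overlap for 32 in the BPA effect without E2, against 51.7%, and for 34 in that under E2, against 53.8%. In each comparison the share of these genes' probes that was called lay near or below that of all probes. Under a litter block the count fell from 16 to 9 in the E2 response after BPA and from 6 to 2 for the difference between the responses, while the shares of all probes became 19.7% and 7.85%.

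**Figure D1:**
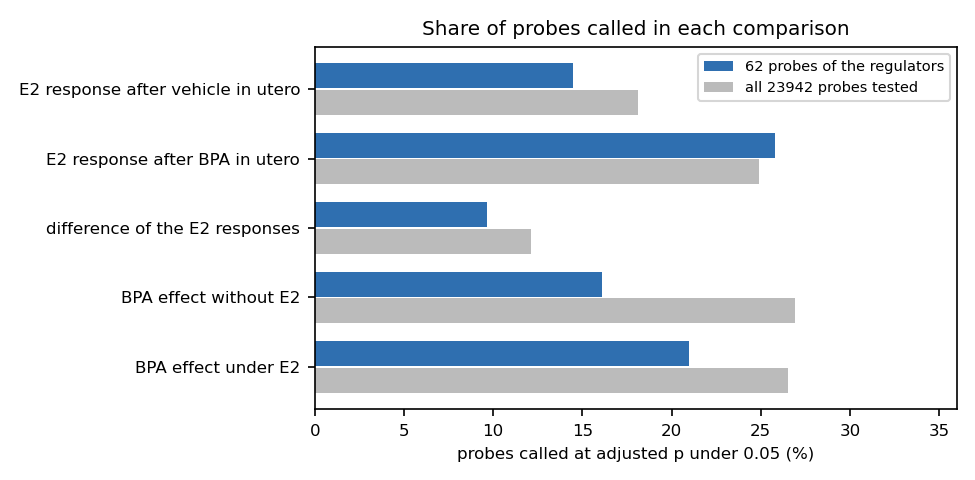
Horizontal bars give the percentage of probes called at an adjusted p under 0.05 in each of 5 comparisons, for the 62 probes of the methylation and deacetylation regulators and for all 23942 probes tested. The regulators lie between 9.68% and 25.8%, and the bars of all probes between 12.1% and 26.9%.

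The changes were small. The largest called change of any of these probes was 1.10, for Dnmt3l, and changes of at least 2-fold were called for 1 probe in each E2 response and for none in the other 3 comparisons. Of all probes, 3.41% were called at 2-fold or more after vehicle, 3.34% after BPA, 4.9% for the difference, 4.61% for the BPA effect without E2 and 4.18% under E2. The median change over the 62 probes was 0.04 after vehicle and 0.07 after BPA, against 0.03 over all probes in both. For the difference between the responses it was 0.18 against -0.01, for the BPA effect without E2 -0.04 against 0.04, and for the BPA effect under E2 0.07 against 0.03. In all, 21 of the 33 genes tested were called in at least 1 comparison, which is 63.6% against 59.4% of all gene symbols tested. The pairs of comparisons that share a group of arrays are given side by side below and are not independent of each other.

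Promoter sequences are shown for 3 genes that were higher after BPA under E2 and that cover the words searched for: Uhrf1 and Ezh2, known to follow cell division, hold an E2F word, and Tet1 and Uhrf1 hold an estrogen receptor half-site. As they were picked by both their change and their words, they show no link between the 2. They are RefSeq promoters of the build GRCm38.p6, each 300 bases long and running from 250 before to 50 after the start, written 5′ to 3′ on the gene's strand. Capitals mark the E2F words TTTCGCGC and TTTGGCGC and the half-site AGGTCA, each on either strand. Uhrf1 has 2 promoters in the RefSeq table, and the other, at chr17:56303087-56303386, holds neither kind of word. The Uhrf1 promoter shown lies at chr17:56304063-56304362 on the plus strand, the Ezh2 promoter at chr6:47594981-47595280 on the minus strand and the Tet1 promoter at chr10:62887275-62887574 on the minus strand.
Uhrf1: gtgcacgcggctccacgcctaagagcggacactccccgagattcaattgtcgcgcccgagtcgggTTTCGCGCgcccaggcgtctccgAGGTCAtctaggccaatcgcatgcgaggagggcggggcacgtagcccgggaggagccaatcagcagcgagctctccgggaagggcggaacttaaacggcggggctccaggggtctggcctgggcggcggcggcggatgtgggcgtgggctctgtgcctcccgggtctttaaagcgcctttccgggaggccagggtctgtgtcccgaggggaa
Ezh2: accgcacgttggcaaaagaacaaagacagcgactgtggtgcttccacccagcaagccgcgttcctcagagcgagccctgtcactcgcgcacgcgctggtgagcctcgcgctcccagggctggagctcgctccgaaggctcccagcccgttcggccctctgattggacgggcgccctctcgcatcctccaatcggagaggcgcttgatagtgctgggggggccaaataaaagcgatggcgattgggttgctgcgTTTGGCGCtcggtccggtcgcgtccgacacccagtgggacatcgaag
Tet1: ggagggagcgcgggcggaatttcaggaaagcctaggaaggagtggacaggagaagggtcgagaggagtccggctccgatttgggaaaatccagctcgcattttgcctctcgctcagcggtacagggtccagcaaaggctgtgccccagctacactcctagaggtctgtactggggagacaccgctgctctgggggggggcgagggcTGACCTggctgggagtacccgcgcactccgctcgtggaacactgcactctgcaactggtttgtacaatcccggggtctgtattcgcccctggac

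Among the RefSeq promoters, 46 matched 33 of the 39 genes. An E2F word was in 3 of the 46, those of Dnmt1, Ezh2 and Uhrf1, which is 6.52% against 0.813% of 32851 promoters. AGGTCA was in 8 of 46, which is 17.4% against 16.3%, and the full element, GGTCA and TGACC with 3 bases between them, in none of the 46 and in 23 of all promoters. The GC box GGGCGG was in 35 of 46, which is 76.1% against 35.7%. The median number of CG pairs was 25.5 per promoter against 7 for all promoters. The E2F words and the GC box themselves hold CG pairs, and the promoters compared were not matched for CG content. A word is a description of the window and says nothing of a factor's binding. Of the genes with an E2F word, Uhrf1 and Ezh2 were called higher after BPA under E2, and Dnmt1 was not called (0.28 ± 0.16, adjusted p = 0.251). Of the 8 genes with AGGTCA in a promoter, Tet1 and Uhrf1 were called higher in that comparison and Hdac7 lower. Kdm1a, Kdm6a and Uhrf2 were not called, and Dnmt3a and Ehmt1 were not tested.

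Tet1, an enzyme that oxidises methylcytosine, rose with E2 after BPA. Its level was 5.24 and 5.24 in CTL-CTL, 5.82 and 5.54 in CTL-E2, 5.39, 4.97 and 5.23 in BPA-CTL, and 6.28, 6.25 and 6.16 in BPA-E2. All 3 BPA-E2 arrays lay above the other 7, and Tet1 was detected on 9 of the 10 arrays. The E2 response after BPA was 1.03 ± 0.12, a 2.05-fold rise (adjusted p = 0.000399). After vehicle it was 0.44 ± 0.15 (adjusted p = 0.0699), and the difference between the responses, 0.59 ± 0.19, did not pass (adjusted p = 0.0815). Under E2, Tet1 was higher after BPA by 0.55 ± 0.13 (adjusted p = 0.0162). That call was lost without CTL-E2 replicate 2 (adjusted p = 0.119) and under robust estimation with a variance trend (adjusted p = 0.0642). Tdg, the glycosylase that acts after TET enzymes, had values of -0.02 to 0.25 in the 4 comparisons between groups and -0.19 ± 0.20 for the difference between the responses (adjusted p = 0.615), and was called nowhere.

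Of the DNA methyltransferase genes, Dnmt3b and Dnmt3l changed. Dnmt3b, a de novo methyltransferase, read 8.96 and 8.95 in CTL-CTL, 9.13 and 9.10 in CTL-E2, 9.01, 8.88 and 8.83 in BPA-CTL and 9.34, 9.40 and 9.35 in BPA-E2 with its brighter probe. The BPA-E2 arrays did not overlap any other group. It rose with E2 after BPA by 0.46 ± 0.07 (adjusted p = 0.00248), against 0.16 ± 0.09 after vehicle (adjusted p = 0.27), and the difference of 0.30 ± 0.12 did not pass (adjusted p = 0.149). Neither BPA effect was called for this probe in the main fit. Under E2 it was called higher after BPA under 5 other settings (adjusted p = 0.0234 to 0.039). The second Dnmt3b probe, ILMN_3114377, was detected on 2 arrays, had values of -0.40 to 0.57 over the 5 comparisons and was called in none.

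Dnmt3l, a cofactor of the de novo methyltransferases with no catalytic activity of its own, rose with E2 after vehicle. Its probe ILMN_3112268 read 6.62 and 6.38 in CTL-CTL, 7.66 and 7.53 in CTL-E2, 7.14, 7.11 and 6.99 in BPA-CTL, and 7.34, 7.11 and 7.17 in BPA-E2. The 2 CTL-CTL arrays were the lowest and the 2 CTL-E2 arrays the highest of the 10, with both BPA groups between them and overlapping each other. The rise after vehicle was 1.10 ± 0.12, or 2.15-fold (adjusted p = 0.000536), and the response after BPA was 0.12 ± 0.10 (adjusted p = 0.421). The responses differed by -0.98 ± 0.16 (adjusted p = 0.00426). With 1 probe per gene symbol, Dnmt3l was not called for the difference, as no probe of these genes was called lower there. BPA was accompanied by a higher level without E2 (0.59 ± 0.11, adjusted p = 0.00474) and a lower one under E2 (-0.39 ± 0.11, adjusted p = 0.0298), and the call under E2 was lost without any 1 of 4 arrays, CTL-E2 replicates 1 and 2 and BPA-E2 replicates 2 and 3 (adjusted p = 0.0658 to 0.16), and in a fit of the compared groups alone (adjusted p = 0.0527). The second Dnmt3l probe, ILMN_1250149, had the same sign in all 5 comparisons, with 0.63 ± 0.20 after vehicle (adjusted p = 0.0629). The main fit called it in none. Its CTL-CTL arrays read 7.32 and 6.58, the first within the range of the BPA-exposed arrays, 7.28 to 7.49. After vehicle it was called with no background correction (adjusted p = 0.00906), the authors' processed table (0.00628) and robust estimation with a variance trend (0.00636).

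Dnmt1, the maintenance methyltransferase, read 8.57 and 8.60 in CTL-CTL, 8.84 and 8.74 in CTL-E2, 8.91, 8.54 and 9.13 in BPA-CTL and 9.22, 8.96 and 9.01 in BPA-E2. The BPA-CTL arrays spanned the whole range of the CTL-E2 arrays. Its changes of 0.20 to 0.28 in the 4 comparisons between groups had adjusted p-values of 0.249 to 0.48.

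In the group of readers and their relatives, Mbd3 rose with E2 after both exposures and was higher after BPA with both injections. Mbd3, a subunit of the NuRD deacetylase complex, read 9.56 and 9.45 in CTL-CTL, 9.87 and 9.92 in CTL-E2, 9.89, 9.92 and 9.94 in BPA-CTL and 10.28, 10.23 and 10.30 in BPA-E2. CTL-CTL arrays were lowest, BPA-E2 arrays highest, and CTL-E2 and BPA-CTL overlapped between them. The E2 response was 0.40 ± 0.09 after vehicle (adjusted p = 0.0138) and 0.35 ± 0.07 after BPA (adjusted p = 0.00668). The BPA effect was 0.41 ± 0.08 without E2 (adjusted p = 0.00474) and 0.37 ± 0.08 under E2 (adjusted p = 0.00849). The difference between the E2 responses was -0.04 ± 0.11 (adjusted p = 0.85), with a 95% confidence interval of -0.30 to 0.21. The E2 response after vehicle was not called under a litter block (adjusted p = 0.0619), without CTL-CTL replicate 2 or CTL-E2 replicate 2 (adjusted p = 0.0796 and 0.0696), or in a fit of the compared groups alone (adjusted p = 0.125), and the BPA effect under E2 was not called without CTL-E2 replicate 1 (adjusted p = 0.0567).

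Uhrf1 was lower in the CTL-E2 arrays than in any other group. It read 10.38 and 10.33 in CTL-CTL, 9.74 and 9.92 in CTL-E2, 10.60, 10.42 and 10.58 in BPA-CTL and 10.44, 10.40 and 10.47 in BPA-E2. It fell with E2 after vehicle (-0.52 ± 0.10, adjusted p = 0.00875), a call lost without CTL-E2 replicate 1 (adjusted p = 0.059) and in a fit of the compared groups alone (adjusted p = 0.0862). After BPA the response was -0.09 ± 0.08 (adjusted p = 0.475), and the difference between the responses, 0.43 ± 0.13, did not pass (adjusted p = 0.0693). It did pass under 5 other settings: no background correction (adjusted p = 0.0156), cyclic loess (0.048), the authors' processed table (0.00937), 1 probe per gene symbol (0.0497), and robust estimation with a variance trend (0.00341). Under E2, Uhrf1 was higher after BPA by 0.61 ± 0.09 (adjusted p = 0.00175).

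Uhrf2, a relative of Uhrf1, was lower after BPA without E2 with 2 of its 4 tested probes. The brightest, ILMN_1224117, read 12.19 and 12.16 in CTL-CTL, 11.91 and 11.84 in CTL-E2, 11.65, 11.72 and 11.62 in BPA-CTL and 11.65, 11.72 and 11.78 in BPA-E2. CTL-CTL was highest and the BPA groups overlapped. The BPA effect without E2 was -0.51 ± 0.08 with this probe (adjusted p = 0.00202) and -0.52 ± 0.16 with ILMN_1219262 (adjusted p = 0.0385), the second lost without CTL-CTL replicate 2, BPA-CTL replicate 2 or BPA-CTL replicate 3 (adjusted p = 0.0995 to 0.259), with no filter on dim probes (adjusted p = 0.0571) and in a fit of the compared groups alone (adjusted p = 0.101). The E2 response of ILMN_1224117 after vehicle, -0.30 ± 0.09 (adjusted p = 0.047), was not called under a litter block (adjusted p = 0.116), without any 1 of the 4 arrays (adjusted p = 0.101 to 0.178), with no filter on dim probes (adjusted p = 0.0756) or in a fit of the compared groups alone (adjusted p = 0.189). The other Uhrf2 probes, ILMN_1216405 and ILMN_1221103, had 0.38 ± 0.14 and 0.28 ± 0.10 in the E2 response after BPA (adjusted p = 0.0831 and 0.0705) and were called in no comparison of the main fit. In that response both were called higher with no background correction, the authors' processed table and robust estimation with a variance trend (adjusted p = 0.0128 to 0.0426).

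Mbd1, Mbd2 and Mbd4, which bind methylated CG pairs, were called in no comparison of the main fit. Mbd1 probe ILMN_2893081 was called with no background correction, the authors' processed table and robust estimation with a variance trend. It was higher there for the difference between the responses (adjusted p = 0.0261 to 0.0389) and lower after BPA without E2 (0.037 to 0.048). Mbd2 was called lower in the E2 response after BPA in a fit of the compared groups alone (adjusted p = 0.0181). Over the 5 comparisons the 4 Mbd1 probes had values of -0.52 to 0.56, both from ILMN_2684039, which was detected on 5 arrays. The Mbd2 probe had -0.39 to -0.09 and was also detected on 5 arrays, and the Mbd4 probe had -0.43 to -0.14.

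**Figure D2:**
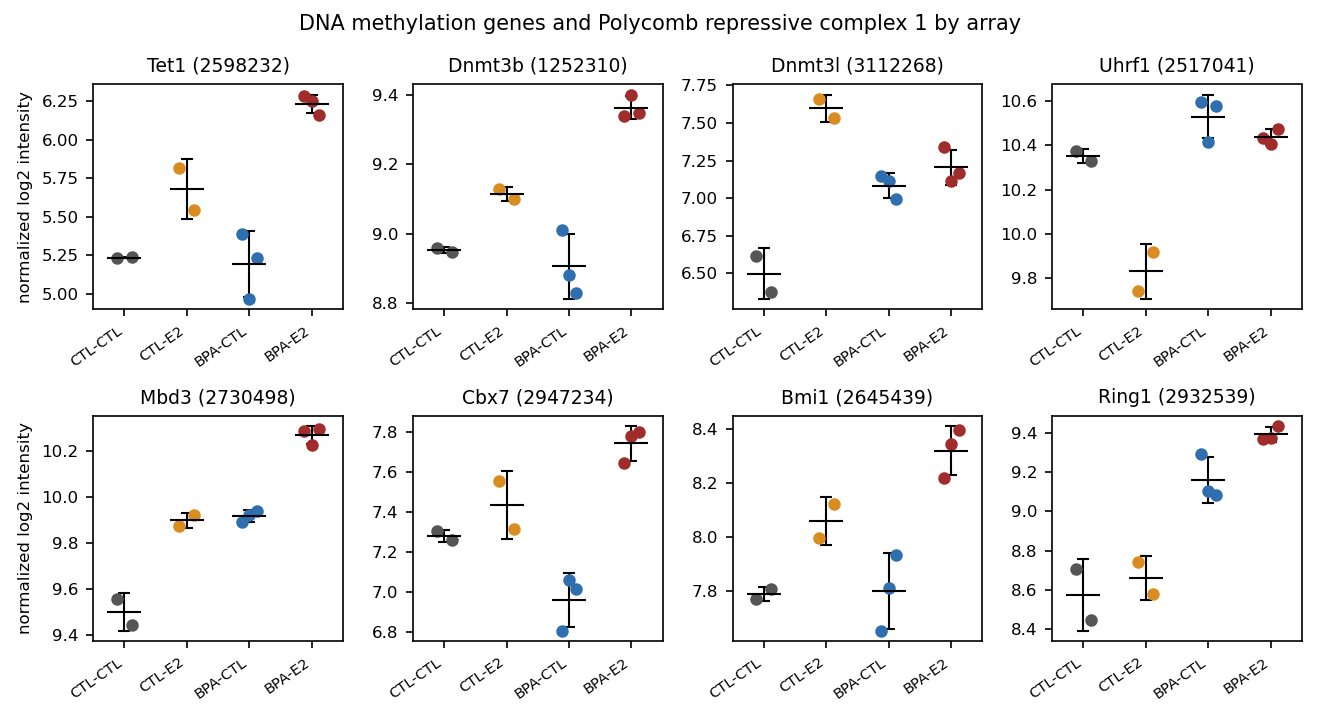
Points are single arrays, horizontal ticks the group means and bars the SD, on a normalized log2 intensity axis set separately for each probe, for Tet1, Dnmt3b, Dnmt3l, Uhrf1, Mbd3, Cbx7, Bmi1 and Ring1. Tet1 is highest in the 3 BPA-E2 arrays (6.16 to 6.28), Dnmt3l in the 2 CTL-E2 arrays (7.53 and 7.66), and Ring1 is higher in all 6 BPA-exposed arrays than in the 4 others.

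In PRC2, the subunits Suz12 and Rbbp4 rose with E2 after BPA, and Ezh2, the catalytic subunit, was higher after BPA under E2 with the 1 of its 2 tested probes that was detected on all arrays. That probe, ILMN_1234171, read 7.81 and 8.17 in CTL-CTL, 7.70 and 7.85 in CTL-E2, 8.05, 8.16 and 7.88 in BPA-CTL and 8.38, 8.39 and 8.47 in BPA-E2. The BPA-E2 arrays were the highest and the other 3 groups lay close together. Under E2 it was higher after BPA by 0.64 ± 0.13 (adjusted p = 0.00668), a call lost without CTL-E2 replicate 1 (adjusted p = 0.0543). Its E2 response after BPA was 0.38 ± 0.11 (adjusted p = 0.0382). That call was lost under a litter block (adjusted p = 0.0563), with cyclic loess (adjusted p = 0.0655) and with no filter on dim probes (adjusted p = 0.0586). It was also lost without any 1 of 5 of the 6 arrays, all but BPA-CTL replicate 2 (adjusted p = 0.0795 to 0.118). The difference between the E2 responses was called for no Ezh2 probe in the main fit. For ILMN_1234171 it was called higher with no background correction (adjusted p = 0.0128), the authors' processed table (0.00949) and robust estimation with a variance trend (0.0131). For the other tested probe it was called lower with no background correction (0.034), the authors' table (0.0417) and without BPA-CTL replicate 1 (0.0444).

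The other tested Ezh2 probe, ILMN_2988572, was near background. It read 4.62 and 4.62 in CTL-CTL, 4.81 and 5.11 in CTL-E2, 4.78, 4.96 and 5.53 in BPA-CTL and 4.50, 4.65 and 4.41 in BPA-E2, and was detected on 1 CTL-E2 and 1 BPA-CTL array. The highest of the 10 values was that of BPA-CTL replicate 3, and the probe was not well above background on any BPA-E2 array or on the other 2 BPA-CTL arrays. Its value in the E2 response after BPA was called lower (-0.57 ± 0.18, adjusted p = 0.0499), and was -0.35 without BPA-CTL replicate 3 (adjusted p = 0.0885). No direction for Ezh2 is drawn from it. The call was lost under a litter block (adjusted p = 0.0881), with no filter on dim probes (adjusted p = 0.0748), in a fit of the compared groups alone (adjusted p = 0.0774) and without any 1 of 5 arrays, all but BPA-CTL replicate 1 (adjusted p = 0.071 to 0.138).

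Suz12, which PRC2 needs for its activity, read 11.41 and 11.26 in CTL-CTL, 11.36 and 11.46 in CTL-E2, 11.33, 11.46 and 11.36 in BPA-CTL and 11.69, 11.69 and 11.70 in BPA-E2. The 3 BPA-E2 arrays were the highest. It rose with E2 after BPA by 0.31 ± 0.08 (adjusted p = 0.0194) and was higher after BPA under E2 by 0.28 ± 0.09 (adjusted p = 0.0421). The E2 response was lost under a litter block (adjusted p = 0.0689) and without any 1 of 5 arrays, all but BPA-CTL replicate 2 (adjusted p = 0.0549 to 0.0657). The BPA effect was lost without any 1 of the 5 arrays (adjusted p = 0.0832 to 0.201), with cyclic loess, with no filter on dim probes and in a fit of the compared groups alone (adjusted p = 0.0682 to 0.0687). A second Suz12 probe, ILMN_2764991, was detected on 2 arrays, had values of -0.32 to 0.12 and was not called.

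Rbbp4, a histone-binding subunit shared with deacetylase complexes, rose with E2 after both exposures with probe ILMN_1230623. It read 6.59 and 6.47 in CTL-CTL, 7.11 and 7.12 in CTL-E2, 6.66, 6.46 and 6.64 in BPA-CTL and 7.02, 7.22 and 7.19 in BPA-E2. The E2-injected arrays lay above all DMSO-injected arrays. The rise was 0.59 ± 0.11 after vehicle (adjusted p = 0.00739), lost in a fit of the compared groups alone (adjusted p = 0.0631), and 0.56 ± 0.09 after BPA (adjusted p = 0.00241). A second probe, ILMN_1249638, rose after BPA by 0.57 ± 0.16 (adjusted p = 0.0306), which was lost under a litter block (adjusted p = 0.0662) and without BPA-CTL replicate 1 or 2 or BPA-E2 replicate 1 or 2 (adjusted p = 0.0758 to 0.101). The other 2 Rbbp4 probes were not called. ILMN_1235327 had 0.22 ± 0.12 in the E2 response after BPA (adjusted p = 0.204), and ILMN_2689917 a negative value there (-0.30 ± 0.14, adjusted p = 0.141).

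Eed, the PRC2 subunit that binds methylated lysine 27, was higher after BPA without E2 with 1 of 2 probes. That probe read 8.21 and 8.27 in CTL-CTL and 8.55, 8.48 and 8.80 in BPA-CTL, a change of 0.37 ± 0.11 (adjusted p = 0.0402). The call was lost without CTL-CTL replicate 1 or 2 or BPA-CTL replicate 1 or 3 (adjusted p = 0.0648 to 0.166), with cyclic loess (adjusted p = 0.0844), with no filter on dim probes (adjusted p = 0.0616) and in a fit of the compared groups alone (adjusted p = 0.0977). The other Eed probe, ILMN_1253609, had 0.13 ± 0.22 there (adjusted p = 0.697). Ezh1, the other catalytic subunit, Rbbp7 with 4 tested probes and Jarid2 were called nowhere in the main fit. Ezh1 had its largest value under E2, -0.68 ± 0.24 (adjusted p = 0.0704), and 2 probes of Rbbp7 had values of 0.25 and 0.27 in the E2 response after BPA (adjusted p = 0.0596 and 0.0709). With no background correction, the authors' processed table and robust estimation with a variance trend, Ezh1 was called lower after BPA under E2 (adjusted p = 0.0232 to 0.0289). Under the same settings Rbbp7 probes ILMN_1219275, ILMN_2691187 and ILMN_2691192 were called higher in the E2 response after BPA (adjusted p = 0.000875 to 0.0397). Over all 5 comparisons the 4 Rbbp7 probes had values of -0.32 to 0.31. Jarid2, a PRC2 cofactor detected on 2 arrays, had -0.46 to 0.27.

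In PRC1, Cbx7 and Bmi1 rose with E2 after BPA, Cbx2 fell with E2 after vehicle, and Ring1 was higher after BPA with either injection. Cbx7, which binds methylated lysine 27, read 7.30 and 7.26 in CTL-CTL, 7.56 and 7.32 in CTL-E2, 6.81, 7.06 and 7.01 in BPA-CTL and 7.64, 7.78 and 7.80 in BPA-E2. The BPA-CTL arrays were the lowest and the BPA-E2 arrays the highest. Its E2 response was 0.78 ± 0.10 after BPA (adjusted p = 0.000704) and 0.16 ± 0.12 after vehicle (adjusted p = 0.439), and the responses differed by 0.63 ± 0.16 (adjusted p = 0.035). The difference was lost under a litter block (adjusted p = 0.0515), with no filter on dim probes (adjusted p = 0.0527) and without any 1 of 7 arrays, all but CTL-E2 replicate 1, BPA-CTL replicate 2 and BPA-E2 replicate 1 (adjusted p = 0.055 to 0.117).

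Bmi1, which activates the ubiquitin ligases of PRC1, read 7.77 and 7.81 in CTL-CTL, 8.00 and 8.12 in CTL-E2, 7.66, 7.81 and 7.93 in BPA-CTL and 8.22, 8.34 and 8.39 in BPA-E2. Both E2-injected groups lay above both DMSO-injected groups. The E2 response was 0.52 ± 0.09 after BPA (adjusted p = 0.0043) and 0.27 ± 0.12 after vehicle (adjusted p = 0.146), and the difference of 0.25 ± 0.15 did not pass (adjusted p = 0.343).

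Cbx2, another lysine-27 reader, read 6.71 and 6.80 in CTL-CTL, 5.86 and 6.11 in CTL-E2, 6.32, 6.19 and 6.03 in BPA-CTL and 6.05, 6.16 and 6.61 in BPA-E2. Both CTL-CTL arrays lay above the other 8. It fell with E2 after vehicle (-0.77 ± 0.19, adjusted p = 0.0226) and was lower after BPA without E2 (-0.58 ± 0.17, adjusted p = 0.035), and the E2 responses differed by 0.87 ± 0.24 (adjusted p = 0.0498). None of these calls held without either CTL-CTL array. The E2 response was also lost under a litter block (adjusted p = 0.0687), in a fit of the compared groups alone (adjusted p = 0.0531) and without CTL-E2 replicate 1, with adjusted p = 0.0694 to 0.119 over the 3 arrays. The difference was lost under a litter block (adjusted p = 0.122), with cyclic loess (adjusted p = 0.0558), with no filter on dim probes (adjusted p = 0.0728) and without any 1 of 9 arrays, all but BPA-E2 replicate 1 (adjusted p = 0.0523 to 0.153). The BPA effect was lost with no filter on dim probes (adjusted p = 0.0511) and without BPA-CTL replicate 2 or 3 as well, with adjusted p = 0.0725 to 0.146 over the 4 arrays.

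Ring1, a ubiquitin ligase of PRC1, read 8.71 and 8.45 in CTL-CTL, 8.74 and 8.58 in CTL-E2, 9.29, 9.11 and 9.08 in BPA-CTL and 9.37, 9.37 and 9.43 in BPA-E2 with probe ILMN_2932539. All 6 BPA-exposed arrays lay above all 4 vehicle-exposed arrays, the same split as the slides. The BPA effect was 0.58 ± 0.11 without E2 (adjusted p = 0.00483) and 0.73 ± 0.11 under E2 (adjusted p = 0.00164), and neither E2 response passed. A dimmer Ring1 probe, detected on 5 arrays, had values of -0.40 ± 0.31 and -0.35 ± 0.31 in these comparisons and was not called. Without BPA-E2 replicate 2 that probe, ILMN_2770715, was called lower after BPA under E2 (-0.71, adjusted p = 0.0262), opposite in sign to the brighter one. Rnf2, the other ligase, detected on 6 arrays, had values of -0.45 to 0.52 and was called nowhere.

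Of the H3K9 methyltransferases, Setdb1 rose with E2 after vehicle and Ehmt2 fell with E2 after BPA with 2 of its 3 tested probes. Setdb1 read 7.95 and 7.98 in CTL-CTL, 8.42 and 8.38 in CTL-E2, 8.26, 8.23 and 8.25 in BPA-CTL and 8.36, 8.34 and 8.59 in BPA-E2, with CTL-CTL below all other arrays. Its response after vehicle, 0.44 ± 0.10 (adjusted p = 0.0193), was lost under a litter block (adjusted p = 0.059), in a fit of the compared groups alone (adjusted p = 0.0953) and without any 1 of the 4 arrays (adjusted p = 0.064 to 0.0879). Ehmt2, the G9a enzyme, fell after BPA by 0.27 ± 0.08 with ILMN_2705367 (adjusted p = 0.0287) and by 0.24 ± 0.07 with ILMN_3147724 (adjusted p = 0.0476). The first read 10.64, 10.72 and 10.72 in BPA-CTL and 10.40, 10.50 and 10.35 in BPA-E2, without overlap. Both calls were lost under a litter block (adjusted p = 0.0794 and 0.118). The first was also lost without any 1 of 5 arrays, all but BPA-E2 replicate 2 (adjusted p = 0.0514 to 0.0974), and the second without any 1 of the 6 arrays (adjusted p = 0.0834 to 0.13), with no filter on dim probes (adjusted p = 0.0795) and in a fit of the compared groups alone (adjusted p = 0.0564). After vehicle these probes had values of -0.18 ± 0.09 and -0.17 ± 0.09 (adjusted p = 0.218 and 0.253). The third Ehmt2 probe, ILMN_2615204, was detected on 2 arrays, both BPA-E2, and had 0.20 ± 0.18 after BPA (adjusted p = 0.472). Without BPA-E2 replicate 1 it was called higher in that response (0.43, adjusted p = 0.0193), in the difference between the responses (0.83, adjusted p = 0.0109) and in the BPA effect under E2 (0.73, adjusted p = 0.00284), against the direction of the other 2 probes.

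Of the demethylases, Kdm6b, which removes methyl groups from lysine 27, was higher in BPA-E2 than in any other group with 2 of 3 probes. Probe ILMN_3023230 read 9.42 and 9.41 in CTL-CTL, 9.11 and 9.29 in CTL-E2, 9.49, 9.35 and 9.38 in BPA-CTL and 9.77, 9.79 and 9.75 in BPA-E2. Its E2 response was 0.36 ± 0.08 after BPA (adjusted p = 0.0102) and -0.22 ± 0.10 after vehicle (adjusted p = 0.158), and the responses differed by 0.58 ± 0.12 (adjusted p = 0.0177). That difference was lost under a litter block (adjusted p = 0.0669) and without CTL-CTL replicate 1 or 2 or CTL-E2 replicate 1 (adjusted p = 0.0523 to 0.0667). Under E2 the BPA effect was 0.57 ± 0.09 (adjusted p = 0.00181). Probe ILMN_3095624 rose after BPA by 0.46 ± 0.15 (adjusted p = 0.0488) and was higher after BPA under E2 by 0.58 ± 0.16 (adjusted p = 0.0312). The first of these calls was lost under a litter block (adjusted p = 0.0755), with cyclic loess, no filter on dim probes or the compared groups alone (adjusted p = 0.0558 to 0.0777) and without any 1 of 5 arrays, all but BPA-E2 replicate 1 (adjusted p = 0.066 to 0.145). The second was lost without CTL-E2 replicate 1 or BPA-E2 replicate 2 or 3 (adjusted p = 0.0881 to 0.19) and in a fit of the compared groups alone (adjusted p = 0.0604). The third Kdm6b probe, ILMN_2693361, had values of -0.08 to 0.28 over the 5 comparisons and was not called.

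Kdm5b, a lysine-4 demethylase, had probes that differed in sign. ILMN_1251270 was higher after BPA without E2 (0.41 ± 0.09, adjusted p = 0.0105), reading 8.08 and 8.10 in CTL-CTL and 8.61, 8.49 and 8.40 in BPA-CTL, a call lost without CTL-CTL replicate 1 (adjusted p = 0.0588). ILMN_2777722 had -0.26 ± 0.10 there (adjusted p = 0.0991) and was lower after BPA under E2 (-0.49 ± 0.10, adjusted p = 0.00852), reading 7.66 and 7.48 in CTL-E2 and 7.12, 7.12 and 7.01 in BPA-E2, a call lost without CTL-E2 replicate 1 (adjusted p = 0.0698). The remaining tested probe, ILMN_2946020, was not called, with -0.59 ± 0.22 in the E2 response after vehicle (adjusted p = 0.106) and -0.47 ± 0.20 for the BPA effect without E2 (adjusted p = 0.129). Without CTL-CTL replicate 1 it was called lower in both (adjusted p = 0.0435 and 0.0455). For Kdm5b these data give no single direction. Kdm1a, also a lysine-4 demethylase, had values of -0.14 to 0.06 over the 5 comparisons, and the 3 probes of Kdm6a, a relative of Kdm6b, had -0.33 to 0.32. Both genes were called nowhere.

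Of the deacetylases, Hdac5 was highest in the CTL-CTL arrays. Hdac5, a class II enzyme, read 9.26 and 9.40 in CTL-CTL, 8.80 and 8.80 in CTL-E2, 8.48, 8.53 and 8.48 in BPA-CTL and 8.97, 8.71 and 8.80 in BPA-E2 with ILMN_2659160. The groups CTL-E2 and BPA-E2 overlapped and BPA-CTL lay lowest. It fell with E2 after vehicle (-0.53 ± 0.11, adjusted p = 0.0103) and rose with E2 after BPA (0.33 ± 0.09, adjusted p = 0.0256), and the responses differed by 0.86 ± 0.14 (adjusted p = 0.00455). The fall was lost without CTL-CTL replicate 2 or CTL-E2 replicate 1 (adjusted p = 0.0659 and 0.0508) and in a fit of the compared groups alone (adjusted p = 0.0785). The rise was lost under a litter block (adjusted p = 0.0682) and without any 1 of 5 arrays, all but BPA-E2 replicate 2 (adjusted p = 0.0507 to 0.0827).

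A second Hdac5 probe, ILMN_3112922, read 10.44 and 10.34 in CTL-CTL, 9.73 and 9.82 in CTL-E2, 9.48, 9.63 and 9.80 in BPA-CTL and 9.78, 9.75 and 9.72 in BPA-E2. It fell with E2 after vehicle (-0.61 ± 0.11, adjusted p = 0.00669), which a fit of the compared groups alone did not call (adjusted p = 0.0601), and had 0.11 ± 0.09 after BPA (adjusted p = 0.427). The responses differed by 0.73 ± 0.15 (adjusted p = 0.0134), a call lost under a litter block (adjusted p = 0.0578) and without CTL-CTL replicate 1 or CTL-E2 replicate 1 (adjusted p = 0.052 and 0.0531). Without E2 both probes were lower after BPA, by -0.83 ± 0.10 and -0.75 ± 0.10 (adjusted p = 0.000419 and 0.000946). Under E2 the 2 values were 0.03 ± 0.10 and -0.03 ± 0.10 (adjusted p = 0.87 and 0.875). The third probe, ILMN_1213290, had the same sign as the second in 3 of these comparisons but was called in none.

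Hdac2, a class I enzyme, was higher in BPA-E2. Probe ILMN_2640441 read 11.70 and 11.85 in CTL-CTL, 11.96 and 12.04 in CTL-E2, 12.03, 11.87 and 12.07 in BPA-CTL and 12.40, 12.43 and 12.43 in BPA-E2. It rose with E2 after BPA by 0.43 ± 0.08 (adjusted p = 0.00586). Under E2 it was higher after BPA by 0.42 ± 0.09 (adjusted p = 0.0107), and ILMN_1231785 by 0.79 ± 0.19 (adjusted p = 0.0157). Both of the latter calls were lost without CTL-E2 replicate 1 (adjusted p = 0.0708 and 0.115). In the E2 response after BPA, ILMN_1231785 was called only in a fit of the compared groups alone (0.49, adjusted p = 0.0382). Neither Hdac2 probe was called after vehicle in the main fit, or for the difference between the responses. After vehicle, ILMN_2640441 was called with the authors' processed table (0.22, adjusted p = 0.0496) and under robust estimation with a variance trend (0.22, adjusted p = 0.0127). Hdac7 read 9.65 and 9.80 in CTL-E2 and 9.19, 9.23 and 9.01 in BPA-E2, a BPA effect under E2 of -0.58 ± 0.10 (adjusted p = 0.00388). It read 9.48 and 9.45 in CTL-CTL and 9.39, 9.25 and 9.19 in BPA-CTL, and no other comparison of the main fit called it. The difference between its responses was called lower with no background correction, the authors' processed table and robust estimation with a variance trend (adjusted p = 0.0314 to 0.0424). Hdac3, which acts in nuclear receptor corepressor complexes, lay between 10.92 and 11.12 on all arrays and was called nowhere.

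**Figure D3:**
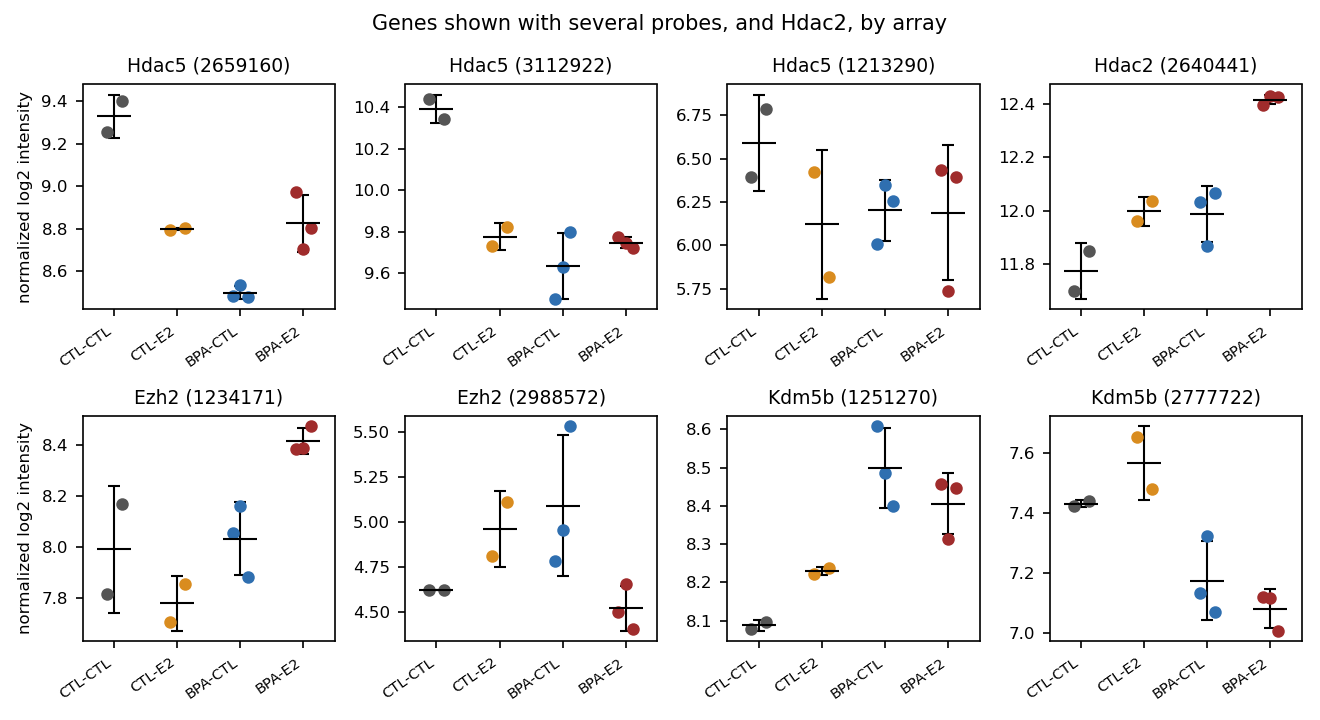
Points are single arrays, horizontal ticks the group means and bars the SD, on a normalized log2 intensity axis set separately for each probe, for 3 probes of Hdac5, 2 of Ezh2, 2 of Kdm5b and 1 of Hdac2. The first 2 Hdac5 probes are highest in CTL-CTL, while BPA-E2 is highest for Ezh2 probe ILMN_1234171 (8.38 to 8.47), and Ezh2 probe ILMN_2988572, detected on 2 arrays, is highest in 1 BPA-CTL array (5.53).

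The E2 responses after vehicle and after BPA share no arrays. Of the 62 probes, 6 were called after vehicle and not after BPA, 13 after BPA and not after vehicle, 3 in both and 40 in neither. These shares are 9.68%, 21%, 4.84% and 64.5%, against 9.09%, 16%, 8.98% and 66% of all probes. Of the 3 called in both, Mbd3 and Rbbp4 moved the same way and Hdac5 the opposite way; of all probes 6.97% were called in both with the same sign and 2% with opposite signs. A call in one response and not in the other does not show a difference, and the difference itself was called for 6 probes of Dnmt3l, Cbx2, Cbx7, Kdm6b and Hdac5.

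**Figure D4:**
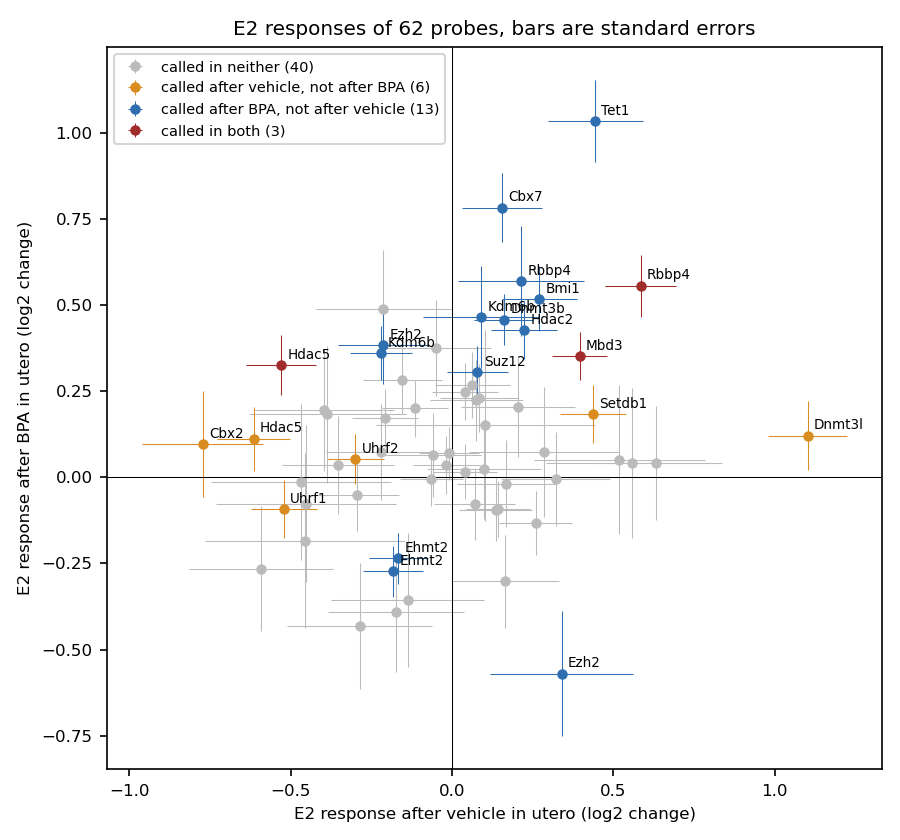
Each point is 1 of 62 probes, with its log2 E2 response after vehicle in utero on the horizontal axis and after BPA in utero on the vertical axis, and bars are standard errors. Dnmt3l lies at 1.10 and 0.12, Tet1 at 0.44 and 1.03, Cbx7 at 0.16 and 0.78, and Hdac5 at -0.53 and 0.33, while 40 probes were called in neither response.

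**Figure D5:**
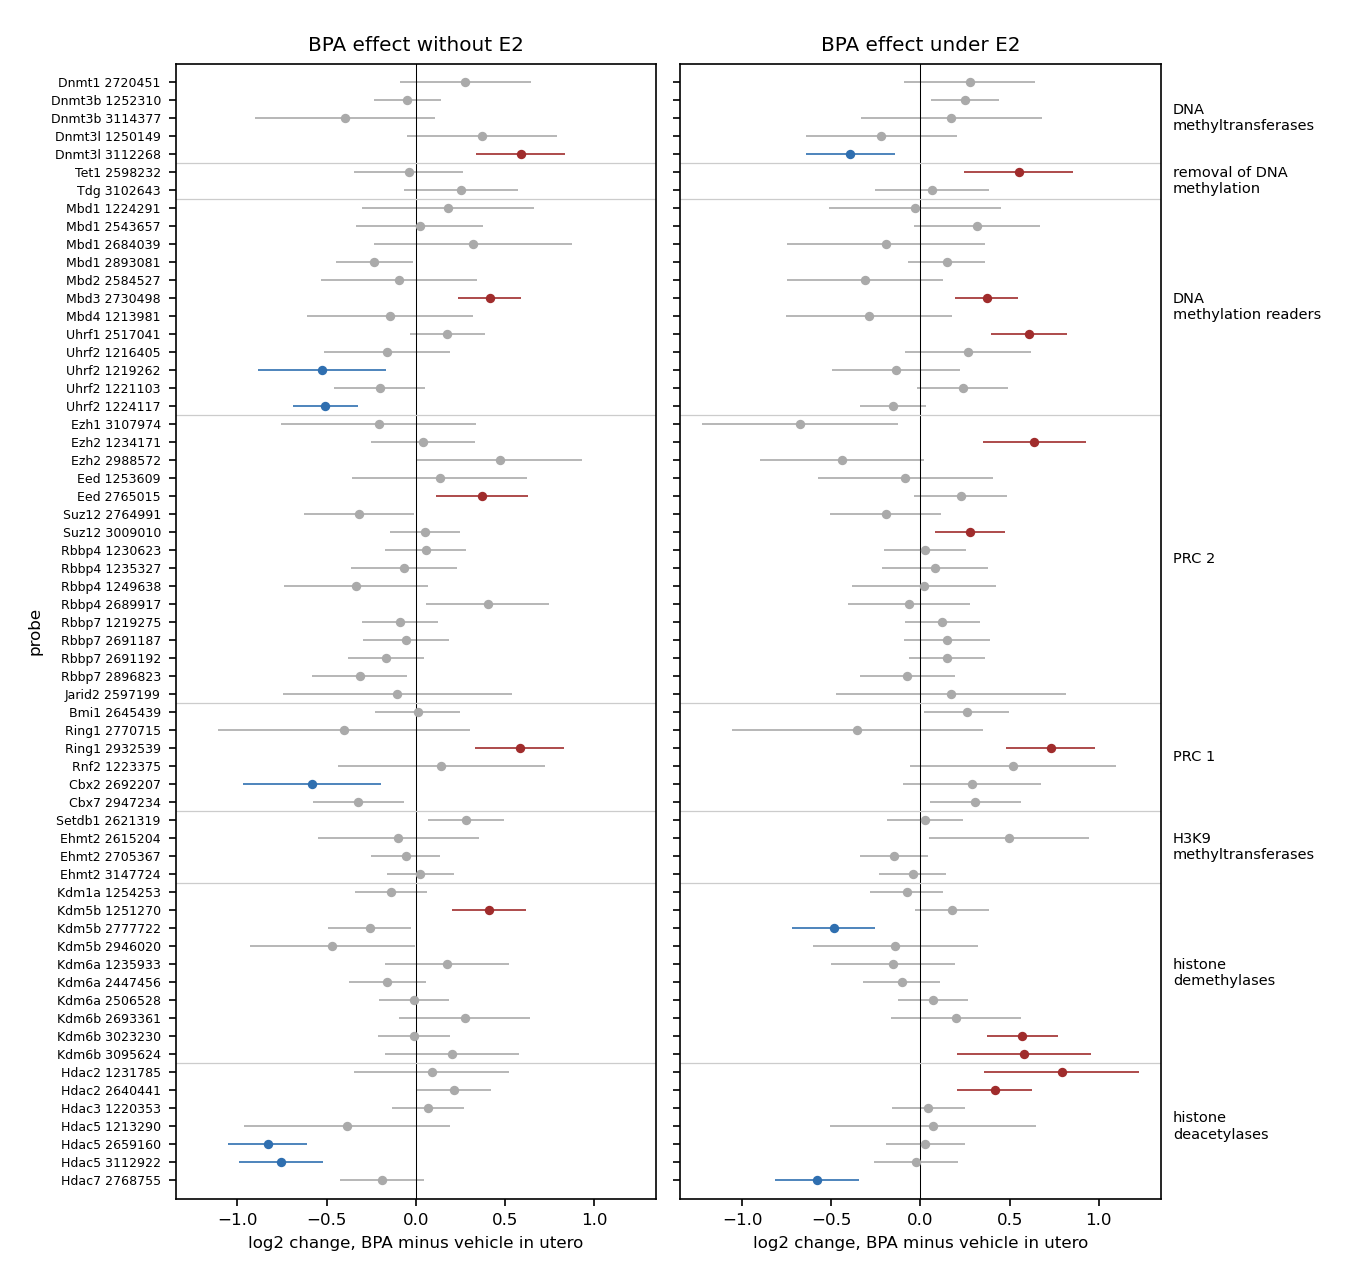
Points are log2 changes of 62 probes for BPA against vehicle in utero, without E2 on the left and under E2 on the right, with bars for 95% confidence intervals, red for called higher and blue for called lower. Without E2, 5 probes are higher and 5 lower, with the 2 Hdac5 probes lowest at -0.83 and -0.75, and under E2, 10 are higher and 3 lower.

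Genes of DNA replication and of other cell types changed in the same arrays. Under E2, 10 of 20 genes of S phase and DNA replication were higher after BPA and none lower, the comparison in which Uhrf1 and Ezh2 were higher, and their summed signal was 9546 to 10147 in CTL-E2 and 12240 to 12936 in BPA-E2. In the E2 response after BPA, where the same Ezh2 probe was also called higher, 2 of the 20 were higher and 3 lower. In the response after vehicle, where Uhrf1 fell, 0 were higher and 4 lower. Of 10 tested mitosis genes, 9 were lower after BPA under E2 and 9 were lower in the E2 response after BPA, with a sum of 3809 to 3867 in BPA-E2 against 9169 to 9366 in BPA-CTL. Epithelial genes were lower in both E2 responses, 5 of 8 after vehicle and 6 of 8 after BPA, with 1 of 8 higher after BPA, and summed to 9315 to 10002 in BPA-E2 against 18860 to 21630 in BPA-CTL. All 6 stromal genes and 6 of 8 smooth muscle genes were lower with E2 after BPA. The stromal sum was 46385 to 49111 in BPA-E2 and 62034 to 63522 in BPA-CTL, and the smooth muscle sum 112305 to 116444 and 139131 to 145772. All 4 tested macrophage genes were lower with E2 after vehicle, and their sum was 9566 to 9792 in CTL-CTL, where Hdac5 was also highest, and 1960 to 5171 in the other groups. The 3 tested adipocyte genes were higher with E2 after BPA, with a sum of 4119 to 4355 in BPA-E2 against 1937 to 2021 in BPA-CTL, while Plin1 and Fabp4 were detected on no array. The part of these shifts in the changes of the methylation regulators was not tested, and in bulk tissue fewer cells of a type and less RNA per cell cannot be told apart.

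A wider list of 110 genes of the same pathways, which holds none of the 39, had 94 tested. With E2 after vehicle 12 were higher and 6 lower, led by Gadd45g (0.93 ± 0.16) and Chd4 (0.88 ± 0.18) and by Gadd45b (-0.89 ± 0.13) and Mta3 (-0.87 ± 0.23). Gadd45 proteins are stress sensors linked to DNA demethylation, and Chd4 and Mta3 are NuRD subunits like Mbd3. With E2 after BPA 31 were higher and 6 lower. The called values furthest from 0 were those of the PRC2 cofactor Aebp2 (1.06 ± 0.16), whose probe ILMN_2626919 was detected on all 3 BPA-E2 arrays and 1 of 3 BPA-CTL arrays, of Smyd5 (0.93 ± 0.15), of Hdac8 (-0.78 ± 0.11) and of the lysine-9 demethylase Kdm3a (-0.66 ± 0.08). The responses differed for 9 genes, 7 higher and 2 lower, with the same Aebp2 probe at 1.29 ± 0.26, Gadd45b at 0.93 ± 0.16, Gadd45g at -0.91 ± 0.20 and Hdac8 at -0.77 ± 0.17. Without E2, 22 were higher after BPA, 12 lower and 1 had probes called both ways, with Gadd45g at 1.09 ± 0.14, Chd4 at 0.90 ± 0.17, Mta3 at -0.88 ± 0.21 and Kdm3a at -0.86 ± 0.13. This Kdm3a value is from ILMN_3043245, and those for the E2 response after BPA and the BPA effect under E2 are from ILMN_3118169. Under E2, 28 were higher, 7 lower and 1 was called both ways. There Ung, a uracil glycosylase, was higher by 1.10 ± 0.20, Hdac8 lower by -0.89 ± 0.12 and Kdm3a by -0.63 ± 0.09. Zbtb38, a reader of methylated DNA, was not well above background on either CTL-E2 array and was at least 1.34-fold higher in BPA-E2 (adjusted p = 0.0402), a bound that sets the BPA-E2 mean against the lowest signal among detected probes. Of this list's 172 probes, 20 were called higher and 8 lower after vehicle, against 8.96% and 9.11% of all probes tested. After BPA 39 were higher and 6 lower, against 13% and 11.9%. For the difference the counts were 8 and 3, against 6.01% and 6.14%. Without E2 they were 33 and 15, against 14.2% and 12.7%. Under E2 they were 41 and 8, against 13.7% and 12.8%. The median change over the 172 probes was 0.13 after vehicle and 0.15 after BPA, against 0.03 over all probes in both.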

How the data were processed

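Uterine RNA was measured on 10 1-colour Illumina bead arrays. Per the file headers, the deposited non-normalized table holds, for each probe, a linear intensity (the mean signal of its beads) and a p-value of detection. The authors' processed table also holds intensity values; its columns each correlated best with their own array (10 of 10), with medians of 129.2 to 129.3, and its method is not given in the sources used here. It served as an alternative only.

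Signals were background-corrected, quantile-normalized and taken to log2 with neqc (limma 3.58.1, R 4.3.3, offset 16). Probes took their symbol from the platform annotation: 34885 had 1 symbol, 18 several and 10378 none, and those with several were not used by name. A probe shared by Kdm6b and another gene was left out by this rule. One limma fit of 4 group means over all 10 arrays gave 5 comparisons, each probe being tested on its own because probes of a gene can disagree. The confidence interval of a change spans 95%.

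By the labels, same-numbered arrays of an exposure come from 1 litter. The main fit held no term for litter, so its estimates and calls are unpaired. Across probes, the deviations of paired arrays correlated at -0.0303 to 0.0196. As an alternative, litter entered as a block, fixed in the E2 responses and in their difference, random in the BPA effects (statmod 1.5.0, consensus correlation 0.00952). The rule for named genes was every member with every probe and, of the wider list, at most the 2 called probes with the largest rise and the 2 with the largest fall per comparison. The members, the lists and the alternatives were chosen with earlier results of these data known. Further settings tried were cyclic loess, uncorrected background, the processed table, a detection filter of 5 arrays or none, 1 probe per symbol, robust estimation with a variance trend, fits restricted to the compared groups, and fits without each array in turn. The fit was tested on simulated data. Motifs were counted with Python 3.11.15, and figures drawn with matplotlib 3.10.9.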

Additional observations from a re-analysis of the deposited data

Results flagged for a closer look

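The E2 response differed between the in utero exposures, by the test of the difference itself (limma, Benjamini-Hochberg adjustment), for 6 probes of 5 genes. For Dnmt3l (ILMN_3112268) the response after BPA minus that after vehicle was -0.98 (0.12 against 1.10, adjusted p = 0.00426). For Hdac5 it was 0.86 with ILMN_2659160 (0.33 against -0.53, adjusted p = 0.00455) and 0.73 with ILMN_3112922 (0.11 against -0.61, adjusted p = 0.0134). Kdm6b had 0.58 (0.36 against -0.22, adjusted p = 0.0177), Cbx7 0.63 (0.78 against 0.16, adjusted p = 0.035) and Cbx2 0.87 (0.10 against -0.77, adjusted p = 0.0498). The 6 are 9.68% of the probes tested here, against 12.1% of all probes. The calls for Dnmt3l and for Hdac5 with ILMN_2659160 held under every alternative in which those probes were tested. With 1 probe per gene symbol, 5 probes were called higher and 0 lower for the difference, so Dnmt3l was not called there.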

How the results depend on the processing

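No called change reversed its sign under any alternative. Of the probes called, 1 of 9 held its call under every alternative that tested it in the E2 response after vehicle, 8 of 16 after BPA, 2 of 6 for the difference, 6 of 10 for the BPA effect without E2 and 4 of 13 under E2. A probe that an alternative left out, as with 1 probe per gene symbol, was not counted as lost there. Of those not called, 4, 9, 10, 12 and 6 gained a call under some alternative in the 5 comparisons. With 9 probes called after vehicle, the compared groups alone called 1, a fit with fewer arrays to estimate the spread, and leaving out 1 array called 4 to 8, with 4 without CTL-CTL replicate 2 or CTL-E2 replicate 1. The authors' table and the variance trend with robust estimation each called 6 higher and 5 lower there, against 4 and 5. After BPA, 16 became 10 with 1 probe per gene symbol, where 33 probes were tested, 9 with replicate block and 9 to 11 without 1 array, with 9 without BPA-CTL replicate 1 or 3 or BPA-E2 replicate 3. For the difference, 6 became 12 with no background correction, 13 with the authors' table and 12 with the variance trend and robust estimation, where 16.8%, 17.5% and 18% of all probes were called against 12.1%, and 2 with replicate block and 3 to 7 without 1 array, with 3 without CTL-CTL replicate 2. The BPA effect without E2 ranged from 7 to 10 without 1 array, and that under E2 from 5 to 13, with 5 without CTL-E2 replicate 1. Litter as a block called 6, 9, 2, 10 and 13 probes in the 5 comparisons, and gained Mbd1 (ILMN_2684039) after vehicle (adjusted p = 0.0392) and Uhrf2 (ILMN_1216405) after BPA (adjusted p = 0.0295); calls it ended stand beside their genes. Over all probes, 4326 calls after vehicle became 1368 with the compared groups alone and 2582 to 2820 without 1 array, 2908 for the difference became 1879 with litter as a block, 6438 without E2 became 4170 without CTL-CTL replicate 1, and 6349 under E2 became 4094 without CTL-E2 replicate 1 and 4129 without CTL-E2 replicate 2. The cause of the other shifts was not tested. Signal near background limits dim probes, such as the second Ezh2 probe.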
